A study of Mus musculus with 2 samples.

Results

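The 51 DNA replication genes described here encode the proteins that load, fire and copy replication origins, supply nucleotides, package new chromatin and control entry into S phase. They were taken by symbol from the list of 32285 genes shared by both libraries, and each of the 51 symbols matched 1 row. Their transcripts were counted in single cells of mouse cerebellar lobules III and IV on postnatal day 1. Each genotype had 1 library, Cxcr4+/1013 and littermate Cxcr4+/+ mice. Both libraries carry the strain label B6.129S2-Cxcr4tm1.1Bala. The 1013 allele encodes a CXCR4 chemokine receptor that lacks the end of its intracellular tail, the type of change found in a human immunodeficiency. The allele is not restricted to a cell type. The labels do not give the number of animals pooled in a library, and the extraction text writes the mutant genotype as Cxcr4+/- where the genotype label has Cxcr4+/1013. The question addressed to these genes was which cell types held cells with replication transcripts, how the 51 genes differed among themselves, and how their levels compared between the 2 libraries.

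Replication is prepared in G1, when the origin recognition complex, CDC6 and CDT1 place the MCM2 to MCM7 ring on DNA. At the onset of S phase CDC45 and the GINS complex switch the ring into a helicase, and the polymerases alpha, delta and epsilon copy DNA with the PCNA clamp and its RFC loader. Many of these genes are transcribed at the G1/S boundary under E2F factors. In the newborn cerebellum the progenitors of granule cells proliferate at the outer surface under Sonic hedgehog from Purkinje cells, which are postmitotic, while the ventricular zone and white matter hold dividing progenitors of GABAergic and glial cells.

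Of the 51 genes, 43 matched the RefSeq table of 32851 promoter windows (assembly GRCm38.p6, 250 bases before to 50 after an annotated start), in which a gene can have several windows and is counted once if any of them matches. Of these 43 genes, 13 (30.2%) had an E2F-type motif, TTTGGCGC or TTTCCCGC on either strand. So did 486 of 27025 genes in the table (1.80%), 14 of 40 genes (35.0%) of a list of other replication and G1/S genes, and 2 of 48 genes (4.17%) of a list of mitosis genes. The 13 members were Cdc6, Cdt1, Mcm3, Mcm5, Mcm6, Mcm7, Gins3, Pola1, Pold1, Pold3, Pole2, Rfc3 and Dtl. With the shorter letters TTGGCGC or TTCCCGC, which the longer motifs contain, 24 of 43 members matched (55.8%), against 7.79% of all genes. CCAAT, the core of NF-Y sites, stood on either strand for 27 of 43 members (62.8%), 37 of 48 mitosis genes (77.1%) and 41.1% of all genes. Windows of 4 members are printed 5′ to 3′ on the strand of the gene, with the longer motif, or its reverse complement where the match is on the opposite strand, in capitals. They belong to the 3 members with the motif among the 8 genes most restricted to granule cell progenitor-like cells, described further on, and to Cdc6, which had the largest drop with mitosis transcripts among the members with the motif. Mcm6 lies on the minus strand at chr1:128359656-128359955 and Mcm3 on the minus strand at chr1:20820263-20820562, and each held 2 matches.
Mcm6: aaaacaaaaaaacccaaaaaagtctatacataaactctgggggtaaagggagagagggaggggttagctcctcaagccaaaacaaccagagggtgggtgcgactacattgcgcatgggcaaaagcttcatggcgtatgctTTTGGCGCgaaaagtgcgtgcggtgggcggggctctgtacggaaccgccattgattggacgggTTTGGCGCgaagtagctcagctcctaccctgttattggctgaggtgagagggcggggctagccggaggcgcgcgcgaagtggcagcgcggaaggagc
Mcm3: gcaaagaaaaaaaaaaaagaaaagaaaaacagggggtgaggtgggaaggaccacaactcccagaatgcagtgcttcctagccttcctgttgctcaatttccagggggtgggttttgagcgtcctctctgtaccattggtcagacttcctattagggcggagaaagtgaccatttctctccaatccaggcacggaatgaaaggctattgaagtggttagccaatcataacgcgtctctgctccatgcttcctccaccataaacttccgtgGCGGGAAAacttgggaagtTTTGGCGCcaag
The windows of Dtl, on the minus strand at chr1:191575495-191575794, and of Cdc6, on the plus strand at chr11:98907901-98908200, held 1 match each.
Dtl: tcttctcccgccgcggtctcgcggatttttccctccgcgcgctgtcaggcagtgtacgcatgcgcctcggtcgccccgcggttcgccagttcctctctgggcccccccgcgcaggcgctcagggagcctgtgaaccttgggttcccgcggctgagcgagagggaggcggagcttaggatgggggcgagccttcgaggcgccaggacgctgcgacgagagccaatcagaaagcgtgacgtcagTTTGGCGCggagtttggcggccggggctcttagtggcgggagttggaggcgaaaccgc
Cdc6: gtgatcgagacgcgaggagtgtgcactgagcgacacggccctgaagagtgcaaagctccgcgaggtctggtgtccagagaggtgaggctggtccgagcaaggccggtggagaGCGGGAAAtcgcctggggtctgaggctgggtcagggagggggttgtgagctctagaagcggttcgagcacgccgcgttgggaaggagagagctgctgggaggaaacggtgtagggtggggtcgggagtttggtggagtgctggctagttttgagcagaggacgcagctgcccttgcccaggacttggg
A match describes letters in these windows and is not evidence of binding. The 13 members with the longer motif had a median log2 difference between progenitor-like and granule neuron-like cells of 2.76, against 2.55 for the 30 matched members without it, and the ranges overlapped (1.48 to 3.31 and 0.89 to 4.86). For 2 splits of the progenitor-like cells described further on, the medians were -1.08 and -0.52 (top over bottom mitosis quartile) and 0.49 and 0.66 (with over without cyclin E transcripts). Ranges were not taken for these.

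The Cxcr4+/1013 library held 130429500 unique molecular identifiers (UMIs, counted transcript molecules) in 9551 barcodes and the Cxcr4+/+ library 120003656 in 9586. After the filter and doublet removal 7568 Cxcr4+/1013 cells and 7712 Cxcr4+/+ cells remained, with medians of 13280 and 11905 UMIs. The libraries shared 25 barcode sequences. Cells were grouped without the 51 genes, and 29 of 34 clusters were named from markers into 17 classes. Purkinje cells (Calb1, Car8, Pcp2) and granule cell progenitors (Atoh1, Mfap4) were found, and so was a GABAergic class led by midbrain-type markers (Otx2, Gata3, Tal1) with 186 and 268 cells. With 1 library per genotype there was no replicate and no test, and every interval here is a 95% interval of counting error alone. Fewer molecules per cell and a lower share of positive cells are both contained in a summed level.

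To compare cells of unequal depth, 3000 UMIs were drawn from each cell. A cell was called replication-high with at least 8 member UMIs among them, a gate that 0.493% of 811 Purkinje cell-like cells passed. Each gate was set so that at most 1% of Purkinje cell-like cells pass, so that their low share is not a result. Purkinje cell-like cells were the deepest class, with medians of 37041 and 36260 UMIs, against 6131.5 to 13017.5 in the other neuronal classes. Whether their pass rate holds for cells that were shallower before the draw was not tested. Of all cells, 13315 were deep enough and 3606 of them passed, while 577 Cxcr4+/1013 and 1388 Cxcr4+/+ cells were too shallow and were left out, 15 and 38 of them progenitor-like. A second readout that uses no member, histone-high, asked for at least 3 UMIs of 64 histone genes, and 0.247% of Purkinje cell-like cells passed it. These genes were taken as replication-dependent, with transcripts made in S phase, by symbols that begin with Hist1h or Hist2h. How fully the 3' assay captures their transcripts was not tested, and the histone-high share is not the share of cells in S phase. A further readout, mitosis-high, asked for at least 10 UMIs of 54 mitosis genes and was passed by 0.617%.

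Replication transcripts were concentrated in the granule cell progenitor-like cells, which held 62.9% of all replication-high cells. There 1197 of 1288 Cxcr4+/1013 cells (92.9%, interval 91.4% to 94.3%) and 1070 of 1151 Cxcr4+/+ cells (93.0%, 91.3% to 94.4%) were replication-high. Almost every progenitor-like cell passed this gate, so that it does not single out cells in S phase, and 46.0% and 48.3% were histone-high. GABAergic or glial progenitor-like cells, led by Ptf1a and Prdm13, came next, with 67.4% (62.3% to 72.3%) and 68.0% (61.9% to 73.6%) replication-high and 40.5% histone-high in each library. They held 11.5% of the replication-high cells. Of the 3 progenitor-like clusters, the one led by Atoh1 and Mfap4 was 89.95% replication-high but 6.43% histone-high over both libraries. Its 10 leading genes also held the members Ung, Mcm6 and Mcm3, and Cdca7 of the other replication and G1/S list. The other progenitor-like clusters were led by cycle genes such as Top2a, Mki67 and Ccnb1, with no progenitor marker among their 10 leading genes. They were 96.1% and 92.2% replication-high and 75.2% and 70.3% histone-high. The last of them, led by Ube2c and Ccnb1, was the least like a progenitor cluster by its markers: Atoh1 was found in 5.96% of its 437 thinned cells, against 21.8% and 24.96% in the other progenitor-like clusters and 2.85% in the granule neuron-like cluster led by Nhlh1 and Cntn2. Neurod1, a gene of the granule neuron list, was found in 83.9% of them, against 48.2% and 47.9%, and 94.5% in that granule neuron-like cluster. All values of progenitor-like cells below include this cluster, and the main ones are also given without it in the closing section. Cells within 2 UMIs of the gate made up 15.5% and 12.5% of the progenitor-like cells and 18.1% and 21.2% of the GABAergic or glial progenitor-like cells.

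Glial classes held an intermediate share. Oligodendrocyte lineage-like cells were 25.9% replication-high in the Cxcr4+/1013 library and 27.7% in the Cxcr4+/+ library. The astroglia or Bergmann glia-like class had 21.5% (17.8% to 25.5%) and 28.3% (25.1% to 31.7%). The astroglial share was unequal between clusters: the cluster led by Gdf10, a Bergmann glia marker, had 31.6% and 41.4%, and the cluster led by Aqp4 and Gfap had 14.0% and 17.3%. Among the smaller classes, over both libraries, 32.9% of 73 endothelial, 33.3% of 54 mural, 31.0% of 58 border macrophage, 37.5% of 24 microglia and 16.9% of 189 fibroblast-like cells were replication-high.

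Neuronal classes held few replication-high cells, apart from 1 cluster in each of the granule and interneuron lineages. Granule neuron-like cells were 8.55% replication-high in the Cxcr4+/1013 library and 11.1% in the Cxcr4+/+ library. Of the 251 such cells in both libraries, 242 lay in the cluster led by Nhlh1, Cntn2 and Neurod1, where the shares were 26.4% and 31.8%, while the other two granule neuron-like clusters stood at 0.579% and 0.443% over both libraries. In that Nhlh1 and Cntn2 cluster 39.1% of cells were mitosis-high but 6.41% histone-high. GABAergic interneuron-like cells were 2.83% and 3.63%, and their cluster led by Pax2, Slc6a5 and Lhx5 had 7.77% and 9.86%, against 0.787% to 1.12% over both libraries in the other interneuron clusters. The unipolar brush cell or rhombic lip-like class stood at 1.76% and 1.44%, glutamatergic nuclear or midbrain neuron-like cells at 0.875% and 1.497%, and midbrain-type GABAergic neuron-like cells at 0.621% and 1.14%. In Purkinje cell-like cells, on which the gate was set, 4 of 397 Cxcr4+/1013 cells (1.01%) passed, and 0 of 414 Cxcr4+/+ cells, which allows a share of up to 0.725%.

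**Figure D1:**
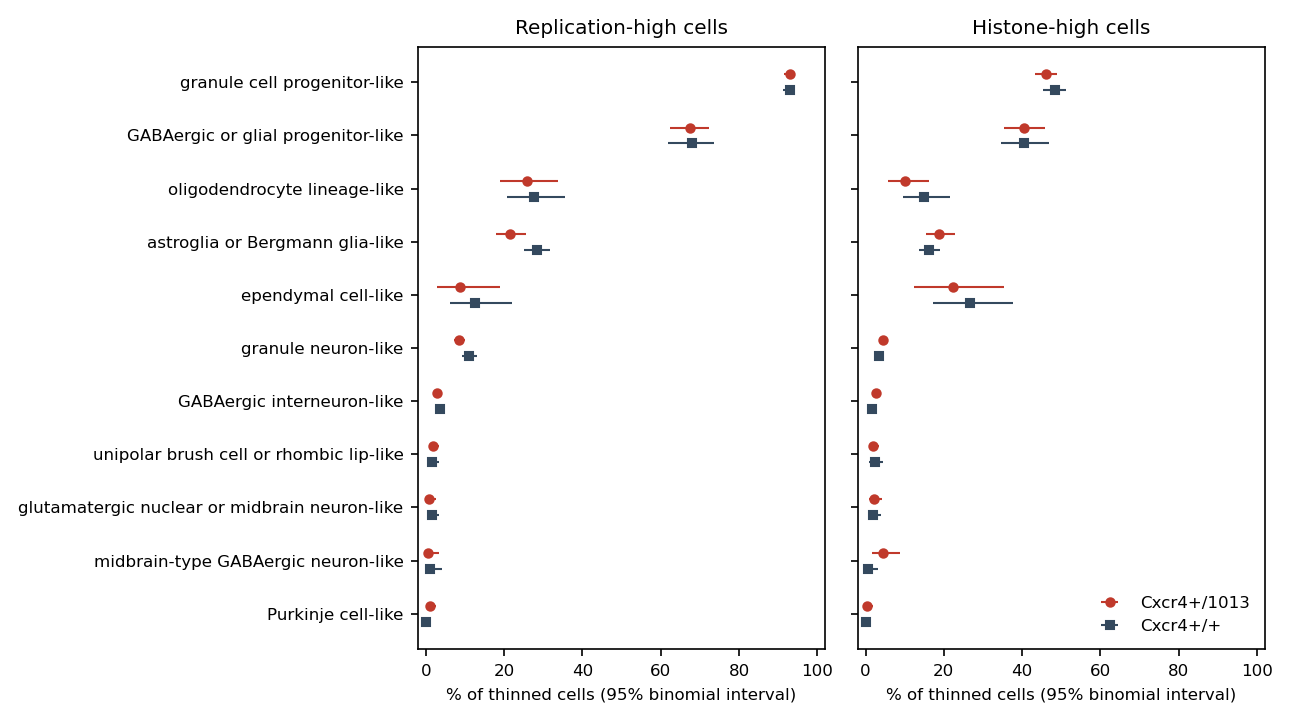
Share of thinned cells called replication-high (left) and histone-high (right) in each class with at least 50 thinned cells per library. Circles are the Cxcr4+/1013 library and squares the Cxcr4+/+ library, bars are 95% binomial intervals, and both progenitor classes stand above all others in both panels.

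A similar order appeared in the summed level of the 51 genes, in CPM, the usual scaling of counts to the total UMIs of the class. Progenitor-like cells had 6247 CPM in the Cxcr4+/1013 library and 6464 in the Cxcr4+/+ library, and GABAergic or glial progenitor-like cells 4830 and 4900. Astroglia-like cells had 2266 and 2655 CPM, granule neuron-like cells 1202 and 1364, and Purkinje cell-like cells, which should hold no replicating cells, 679.5 and 696.4. Without thinning, with the gate taken as the same proportion of each cell's UMIs, the replication-high shares were 94.7% in both libraries for progenitor-like cells, 19.7% and 24.4% for astroglia-like cells and 8.06% and 9.92% for granule neuron-like cells. They were 67.8% and 66.1% for GABAergic or glial progenitor-like cells, 25.8% and 22.8% for oligodendrocyte lineage-like cells and 0.186% and 0.959% for the unipolar brush cell or rhombic lip-like class. In these last 3 classes the library with the higher share was not the same with and without thinning, so that no order between the libraries can be given.

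The 51 genes differed widely in how far they were higher in progenitor-like than in granule neuron-like cells. The median log2 ratio of progenitor-like over granule neuron-like CPM was 2.66 (0.86 to 5.11) in the Cxcr4+/1013 library and 2.44 (0.92 to 4.60) in the Cxcr4+/+ library. In both libraries 50 of 51 genes had a log2 ratio of at least 1, 39 of at least 2 and 5 of at least 3. In the list of other replication and G1/S genes, 43 of 52 reached 1, 26 reached 2 and 15 reached 3. The shares of all genes past these limits were not counted. These ratios compare clusters built from other genes, many of which also follow the cell cycle, and are descriptions.

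The most restricted member was E2f8, a repressor among the E2F factors, with 61.7 CPM in Cxcr4+/1013 and 55.5 in Cxcr4+/+ progenitor-like cells, and 1.79 and 2.29 in granule neuron-like cells, log2 ratios of 5.11 and 4.60. Clspn, whose product claspin links stalled forks to the checkpoint kinase, had 111.3 and 112.0 CPM in progenitor-like cells, and 6.52 and 9.52 in granule neuron-like cells. E2f8 was found in 14.0% of progenitor-like, 0.556% of granule neuron-like and 0.112% of Purkinje cell-like cells at 3000 UMIs, and Clspn in 25.9%, 1.87% and 0.438%. Both genes were thus rarely detected in granule neuron-like and Purkinje cell-like cells at this depth.

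The helicase ring followed. Mcm6 had 228.1 and 239.0 CPM in progenitor-like cells, and 19.5 and 28.6 in granule neuron-like cells, log2 ratios of 3.55 and 3.06. Mcm3 had 164.7 and 174.5 CPM, and 16.5 and 21.5, log2 ratios of 3.32 and 3.02. The other ring subunits were less restricted, with mean log2 ratios of 2.83 for Mcm5, 2.77 for Mcm2, 2.53 for Mcm4 and 2.14 for Mcm7. Tyms, which makes thymidylate, and Rrm2, the small subunit of ribonucleotide reductase, had mean log2 ratios of 3.13 and 3.08. Tyms stood at 152.9 and 182.1 CPM in progenitor-like cells, against 17.3 and 21.1 in granule neuron-like cells. Rrm2 stood at 202.1 and 203.6 CPM, against 21.6 and 26.6. Cdc45, the helicase activator, reached 3.06 with 43.9 and 40.5 CPM, against 5.05 and 5.09. Dtl, which marks CDT1 for destruction in S phase, reached 3.02 with 185.9 and 175.6 CPM, against 21.4 and 23.1.

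At the other end, Orc6, a subunit of the origin recognition complex, had 148.9 and 170.9 CPM in progenitor-like cells and 81.8 and 90.3 in granule neuron-like cells, log2 ratios of 0.86 and 0.92. It was found in 37.7% of progenitor-like, 22.6% of granule neuron-like and 15.7% of Purkinje cell-like cells. The part of free RNA in these detections was not tested. Orc1, another subunit of that complex, had a mean log2 ratio of 2.34. The clamp loader genes Rfc3 and Rfc2 had mean log2 ratios of 1.48 and 1.54, with 114.2 and 113.3 CPM for Rfc3 in progenitor-like cells, against 41.8 and 40.0 in granule neuron-like cells. Rfc2 had 83.8 and 93.0 CPM, against 27.9 and 32.9. Gins4, Pold3, an accessory subunit of polymerase delta, and Rpa3, the smallest subunit of the single-strand binding protein, had mean log2 ratios of 1.63, 1.72 and 1.83. Gins4 had 47.9 and 52.7 CPM, against 15.9 and 16.7, Pold3 had 91.4 and 79.5, against 27.8 and 24.3, and Rpa3 had 105.7 and 116.2, against 29.9 and 32.7. Dut, which removes dUTP, was found in 84.2% of progenitor-like cells but also in 36.5% of granule neuron-like and 35.2% of Purkinje cell-like cells.

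By role, the median of the mean log2 ratio was 3.02 over the 3 transcriptional and turnover regulators, 2.84 over the 4 chromatin and histone supply genes, 2.65 over the 10 licensing genes and 2.64 over the 9 polymerase and primase genes. It was 2.57 over the 5 nucleotide supply genes, 2.56 over the 2 genes of flap removal and ligation, 2.35 over the 6 helicase activation genes, 2.29 over the 3 fork protection genes and 2.25 over the 9 genes of the clamp, its loader and the single-strand binding protein. Every role with more than 2 members spanned at least 1 log2 unit, but a role can hold several complexes. Subunits of 1 complex were close for Pole and Pole2 (2.97 and 2.99) and apart for Orc1 and Orc6 (2.34 and 0.89).

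**Figure D2:**
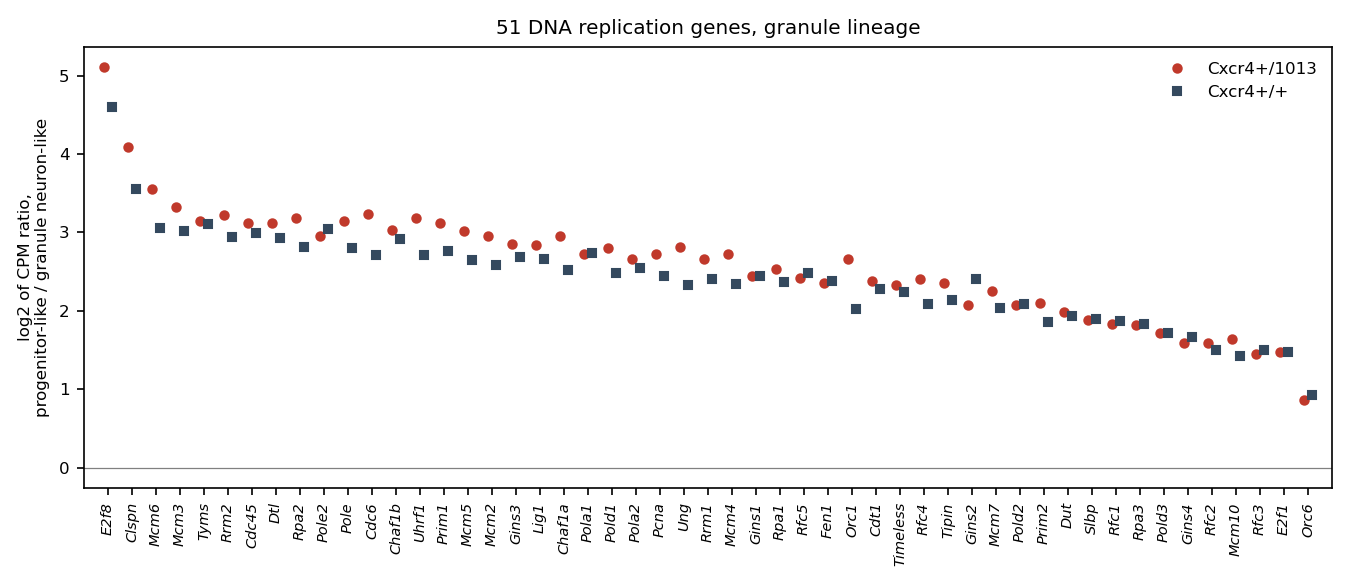
Log2 ratio of CPM in granule cell progenitor-like over granule neuron-like cells for the 51 genes, ordered by the mean of both libraries. Circles are the Cxcr4+/1013 library and squares the Cxcr4+/+ library, and the values run down to Orc6 at 0.86 and 0.92 at the right.

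E2f1 and Mcm10 were spread differently over the granule neuron-like clusters. E2f1, an activating E2F factor, had 109.3 and 57.5 CPM in progenitor-like cells, and 100.3 and 49.1 CPM in the Nhlh1 and Cntn2 cluster, against 13.3 and 7.16 CPM in the other two granule neuron-like clusters. Its drop between progenitor-like cells and the Nhlh1 and Cntn2 cluster was 0.13 and 0.23 log2, the smallest of the 51 genes, and the median drop was 1.65 and 1.41. Over Purkinje cell-like cells, where it had 1.58 and 1.203 CPM, its mean log2 ratio was 5.85. Mcm10, which helps to fire origins, had 46.7 and 38.3 CPM in progenitor-like cells, 12.4 and 11.5 in the Nhlh1 and Cntn2 cluster, and 16.1 and 15.6 in the other two. It was the only member that was not highest in progenitor-like cells, intermediate in the Nhlh1 and Cntn2 cluster and lowest in the others, an order that 50 of 51 genes kept in both libraries. Ratios over the other two clusters were larger for most genes, with medians of 3.36 and 3.35, and 45 genes reached 2 in both libraries. Cdc6 was an example, with 36.5 and 38.7 CPM in progenitor-like cells, 12.2 and 16.6 in the Nhlh1 and Cntn2 cluster and 4 and 8 UMIs in all in the others.

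Within the progenitor-like cells the members differed in where they were highest along the cycle. These cells were split into quartiles by their mitosis-gene UMIs of 3000, with borders at 16, 34 and 54, which uses none of the 51 genes. Summed member levels from the lowest to the highest quartile were 6545, 8300, 6628 and 4189 CPM in the Cxcr4+/1013 library and 6668, 8640, 6551 and 4464 in the Cxcr4+/+ library. Histone transcripts peaked a step later, at 257.1, 1722, 3239 and 1944 CPM, and 287.5, 1825, 3120 and 1989 CPM. Of the 51 genes, 37 were highest in the second quartile in both libraries, Ung and Orc1 in the first and Rrm1 in the third, while 11 peaked in different quartiles in the 2 libraries. How the peaks of all genes spread over the quartiles was not counted. Depth increased over the quartiles, with medians of 14994 to 23233.5 UMIs in the Cxcr4+/1013 library and 14094.5 to 21343 in the Cxcr4+/+ library, and levels are per UMI of the quartile.

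Ung, which removes uracil from DNA, had the largest drop. From the lowest to the highest quartile it had 125.7, 92.6, 20.4 and 6.79 CPM in the Cxcr4+/1013 library and 132.5, 97.5, 25.2 and 7.60 in the Cxcr4+/+ library, top to bottom log2 ratios of -4.21 and -4.12. Cdc6, the licensing loader, had 65.7, 63.0, 24.8 and 8.66 CPM, and 60.7, 64.7, 29.8 and 9.67, log2 ratios of -2.92 and -2.65. Chaf1b, a subunit of the chromatin assembly factor, had log2 ratios of -2.09 and -1.69. The 10 licensing genes were all lower in the top quartile, with a median log2 ratio of -1.32, with -1.60 and -1.44 for Mcm6 and -1.46 and -1.47 for Cdt1. Orc6 and Mcm7 had the smallest drops among them, with -0.50 and -0.52, and -0.48 and -0.47. In total 42 members were lower and 7 higher in the top than in the bottom quartile in both libraries. The shares of all genes lower or higher were not counted, and the top quartile was chosen for its many mitosis transcripts.

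E2f8 ran the other way. It had 17.0, 74.8, 70.8 and 72.2 CPM in the Cxcr4+/1013 library and 15.8, 77.7, 60.4 and 62.0 in the Cxcr4+/+ library, log2 ratios of 2.09 and 1.97, so that its level stayed up in cells rich in mitosis transcripts. Both subunits of ribonucleotide reductase were also higher in the top quartile, Rrm1 by 0.47 and 0.57 and Rrm2 by 0.52 and 0.37. So were Rfc4 (0.30 and 0.42), Rfc5 (0.38 and 0.62) and Rpa3 (0.30 and 0.23). The remaining gene of the 7 was Tyms, at 0.03 and 0.39, which was highest in the middle quartiles. E2f1 was nearly level, at 112.8, 120.4, 112.8 and 95.9 CPM, and 60.7, 62.0, 55.5 and 53.4.

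**Figure D3:**
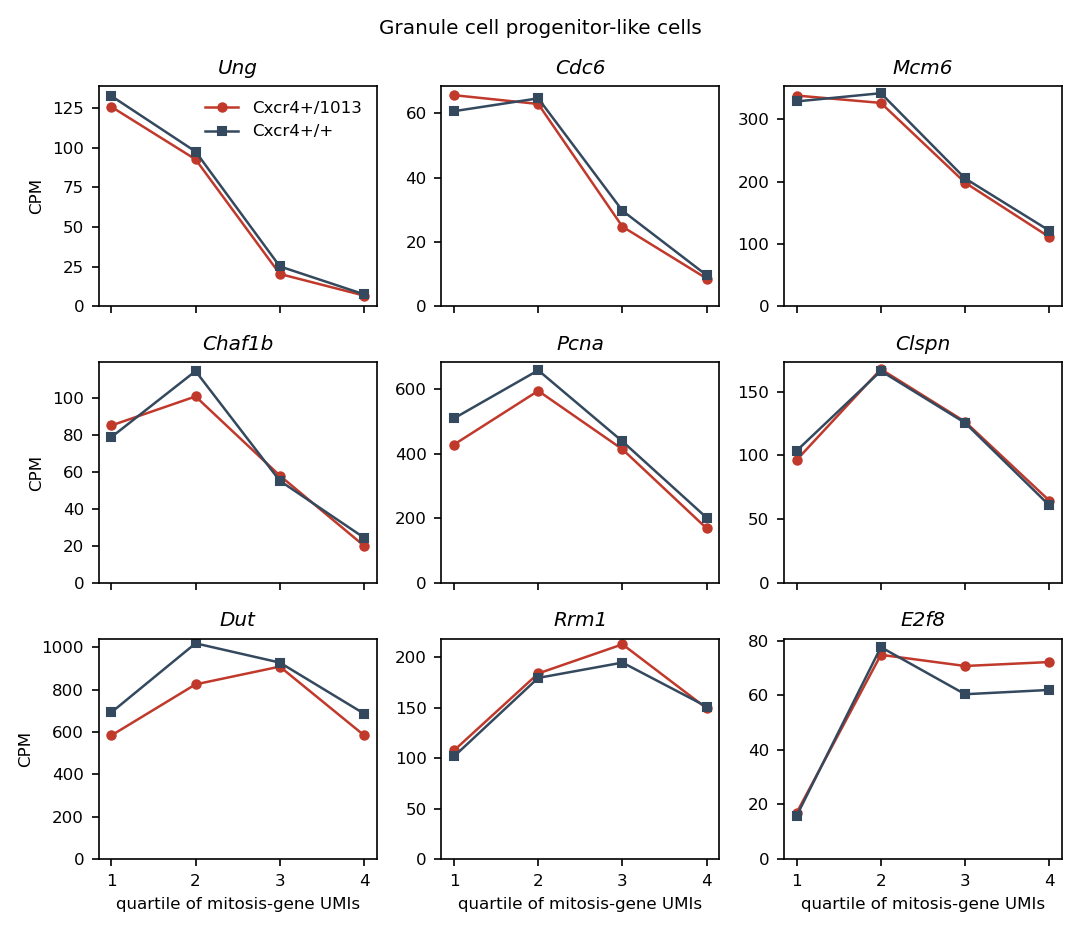
Level in CPM of 9 members in granule cell progenitor-like cells over quartiles of mitosis-gene UMIs, 1 being the lowest. Circles are the Cxcr4+/1013 library and squares the Cxcr4+/+ library: Ung falls throughout, Pcna and Clspn peak in quartile 2, Rrm1 in quartile 3, and E2f8 stays high after quartile 2.

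The progenitor-like cells were also split by cyclin E transcripts. In the lower 2 mitosis quartiles, cells with a UMI of Ccne1 or Ccne2 had 8351 member CPM in the Cxcr4+/1013 library and 8611 in the Cxcr4+/+ library, against 5516 and 5651 in cells without one. The cells with cyclin E were deeper, with medians of 17067 and 16108 UMIs, against 14560 and 13308. They also had more histone transcripts, 1287 and 1378 CPM, against 511.9 and 471.5. Their mitosis transcripts stood at 6852 and 7186 CPM, against 5036 and 4660, so that the split does not single out cells at the G1/S boundary. All 51 genes were higher in the cells with cyclin E in both libraries. The share of all genes that were higher in these cells was not counted. Among the members, the largest log2 differences were those of E2f8 (2.47 and 1.96), Clspn (1.15 and 1.36) and Rrm2 (1.13 and 1.30), and those of Ung were 0.22 and 0.10. By histone quartile, 28 members were higher and 20 lower in the top than in the bottom quartile in both libraries. Rrm1 (0.86 and 0.97), Tyms (0.97 and 1.08) and E2f8 (1.31 and 1.62) were among the higher, and Ung (-2.11 and -2.43), Cdc6 (-1.05 and -0.91) and Orc1 (-1.19 and -0.88) among the lower. Shares of all genes higher or lower by histone quartile were not counted either.

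Between the libraries the summed level of the 51 genes was lower in the Cxcr4+/1013 library in most large classes. The difference was small in both progenitor classes, and also in GABAergic interneuron-like and Purkinje cell-like cells. The ratio of Cxcr4+/1013 over Cxcr4+/+ was 0.966 (0.959 to 0.974) in progenitor-like cells and 0.986 (0.967 to 1.004) in GABAergic or glial progenitor-like cells. It was 0.854 (0.837 to 0.870) in astroglia or Bergmann glia-like cells, 0.876 (0.842 to 0.910) in oligodendrocyte lineage-like cells and 0.881 (0.864 to 0.899) in granule neuron-like cells. It was 0.903 (0.864 to 0.945) in glutamatergic nuclear or midbrain neuron-like cells, 0.924 (0.885 to 0.965) in the unipolar brush cell or rhombic lip-like class, 0.959 (0.938 to 0.979) in GABAergic interneuron-like cells, 0.976 (0.949 to 1.003) in Purkinje cell-like cells and 1.064 (0.989 to 1.145) in midbrain-type GABAergic neuron-like cells. Smaller classes lay on both sides of 1, between 0.694 (0.616 to 0.780) in mural cell-like cells and 1.207 (1.053 to 1.383) in microglia-like cells. The other replication and G1/S genes had ratios of 1.027 in progenitor-like, 1.037 in GABAergic or glial progenitor-like, 0.902 in astroglia-like and 0.985 in granule neuron-like cells. Histone transcripts had ratios of 1.011, 1.043, 1.030 and 1.068 in the same 4 classes, and transcripts of the mitosis list 1.035, 0.902, 0.796 and 0.937. The share of replication-high cells differed by -0.0279 points (-2.12 to 2.08) in progenitor-like cells, by -6.85 points (-11.8 to -1.69) in astroglia-like cells and by -2.54 points (-4.96 to -0.183) in granule neuron-like cells. The histone-high share was the higher one in the Cxcr4+/1013 library in both of the last classes, with 18.9% of Cxcr4+/1013 and 16.2% of Cxcr4+/+ astroglia-like cells and 4.41% and 3.42% of granule neuron-like cells. The mitosis-high share was the lower one there, with 27.77% and 29.53% of astroglia-like and 12.55% and 14.77% of granule neuron-like cells. The granule neuron-like difference rested on the Nhlh1 and Cntn2 cluster: without it the summed log2 ratio was -0.04 in place of -0.18, at a coarser clustering (Leiden resolution 0.5) it was -0.02, and with no doublets removed it was 0.02.

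Gene by gene, all members but E2f1 differed by less than 1.5-fold between the progenitor-like cells of the 2 libraries. All 51 genes passed the minimum of 50 UMIs there, and 1 of them was at least 1.5-fold higher in the Cxcr4+/1013 library and 0 at least 1.5-fold lower. Of 13250 genes tested, 3.26% were that much higher and 1.29% that much lower. The median log2 ratio was -0.07 over the members and 0.06 over all genes. By the counting interval 12 members lay wholly above 1 and 23 wholly below, against 27.2% and 13.4% of all genes. Among the 52 other replication and G1/S genes 14 lay above and 4 below, with a median log2 ratio of 0.03.

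E2f1 had 109.3 CPM (105.2 to 113.6) in Cxcr4+/1013 and 57.5 (54.2 to 60.8) in Cxcr4+/+ progenitor-like cells, a log2 ratio of 0.93 (0.83 to 1.03). The others whose interval lay farthest from 1 differed by far less. Pole, the catalytic subunit of polymerase epsilon, had 75.4 and 62.2 CPM and a log2 ratio of 0.28 (0.17 to 0.38). Mcm10 had 46.7 and 38.3 CPM (0.29, 0.15 to 0.42), Pola1, the catalytic subunit of polymerase alpha, 193.5 and 167.5 (0.21, 0.14 to 0.27), and Uhrf1, which guides maintenance of DNA methylation, 182.0 and 160.5 (0.18, 0.12 to 0.25). On the lower side, Tyms had 152.9 and 182.1 CPM and a log2 ratio of -0.25 (-0.32 to -0.19). Dut had 726.2 and 828.3 CPM (-0.19, -0.22 to -0.16), Pcna 382.1 and 435.6 (-0.19, -0.23 to -0.15), Pold1, the catalytic subunit of polymerase delta, 25.2 and 30.9 (-0.29, -0.46 to -0.13), and Orc6 148.9 and 170.9 (-0.20, -0.27 to -0.13). Apart from E2f1 every log2 ratio in this class lay between -0.29 and 0.29.

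The members above 1 came from longer genes than those below. In progenitor-like cells the 12 members above 1 had a median gene span of 35.0 kb and the 23 below 1 of 13.8 kb. All genes showed the same, with 56.6 kb for the 3608 above and 10.6 kb for the 1769 below with an annotated span. Markers of other cells also differed in the progenitor-like cells: the summed Purkinje cell list had 806.8 CPM in the Cxcr4+/1013 and 676.5 in the Cxcr4+/+ library, the granule neuron list 1614 and 1400, and the erythroid list 46.6 and 8.84. The part of gene length and of these RNAs in the member ratios was not tested.

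**Figure D4:**
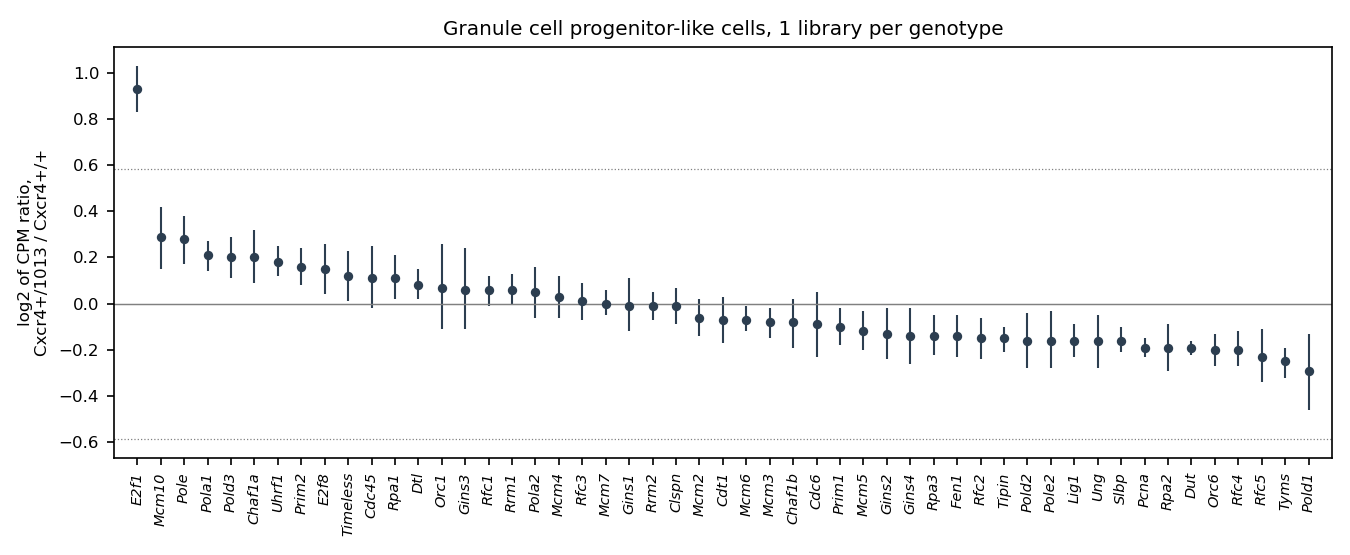
Log2 ratio of CPM in the Cxcr4+/1013 over the Cxcr4+/+ library in granule cell progenitor-like cells for each of the 51 genes, with 95% counting intervals. Dotted lines mark 1.5-fold, and E2f1 at 0.93 is the only gene beyond them.

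E2f1 stood higher in the Cxcr4+/1013 library in each of the 6 large classes where it had at least 50 UMIs, and by at least 1.5-fold in 5 of them. Granule neuron-like cells had 39.5 CPM in the Cxcr4+/1013 library and 20.6 in the Cxcr4+/+ library, a log2 ratio of 0.94 (0.74 to 1.14). GABAergic or glial progenitor-like cells had 81.1 and 48.5 CPM (0.74, 0.49 to 1.0) and GABAergic interneuron-like cells 8.30 and 3.26 (1.35, 0.88 to 1.83). The unipolar brush cell or rhombic lip-like class had 9.29 and 5.39 CPM (0.79, 0.03 to 1.59). In astroglia-like cells the levels were 16.9 and 12.5 CPM (0.43, 0.07 to 0.80). Below that minimum, Purkinje cell-like cells had 23 and 18 UMIs, with a log2 ratio of 0.39 (-0.56 to 1.37), and glutamatergic nuclear or midbrain neuron-like cells had 9 and 14, with -0.57 (-1.96 to 0.74). Among 7271 genes with at least 50 UMIs in every one of the 10 large classes, 24 were at least 1.5-fold higher in all 10, so that differences between the libraries shared by all classes were found among other genes. Whether the difference in E2f1 belongs to the genotype or to these libraries cannot be told apart.

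**Figure D5:**
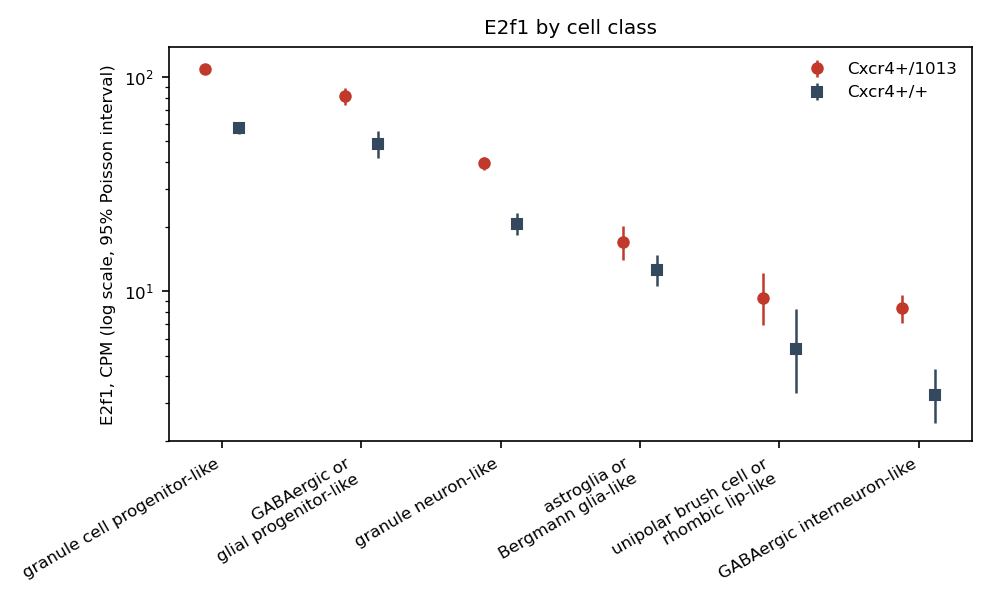
E2f1 level in CPM, on a log axis, in the 6 classes with at least 100 cells per library and at least 50 E2f1 UMIs. Circles (left of each pair) are the Cxcr4+/1013 library and squares the Cxcr4+/+ library with 95% Poisson intervals, and the Cxcr4+/1013 value is the higher in each class.

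In the other large classes few members passed the size rule, and they were mostly genes with low counts. In granule neuron-like cells, where all 51 passed the minimum, E2f1 was the 1 member higher (2.89% of all genes), and Cdc6, Pold1 and Ung were the 3 lower (1.71% of all genes). Ung had 7.57 CPM in the Cxcr4+/1013 library and 11.8 in the Cxcr4+/+ library (log2 ratio -0.64, -0.98 to -0.31), Cdc6 3.89 and 5.90 (-0.60, -1.08 to -0.13) and Pold1 3.63 and 5.53 (-0.61, -1.10 to -0.12). In oligodendrocyte lineage-like cells 46 members were counted, and 6 were lower (2.50% of all genes) and 0 higher (4.07%). These were Pole2, a subunit of polymerase epsilon, with 11.4 and 27.4 CPM (-1.26, -1.97 to -0.59), Cdt1 (-0.76), Rpa2 (-0.75), the ligase gene Lig1 (-0.71), Chaf1a (-0.70) and E2f8 (-0.64). In astroglia-like cells E2f8 was the 1 lower of 51 (2.27% of all genes), with 15.3 and 25.8 CPM (-0.75, -1.08 to -0.43), and 0 were higher (3.80%). In GABAergic or glial progenitor-like cells Mcm10, with 43.6 and 26.7 CPM (0.71, 0.37 to 1.06), and E2f1 were the 2 higher of 51 (3.99%), and 0 were lower (1.51%).

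In the other neurons the members past the rule mostly rested on few UMIs. They were Clspn and E2f1 higher among 49 in GABAergic interneuron-like cells (2.33% of all genes) and 0 lower (1.74%), where Clspn had 61 and 28 UMIs. In Purkinje cell-like cells Mcm3 (46 and 21 UMIs) and Cdt1 (32 and 21 UMIs) were higher among 41 (2.2%) and 0 lower (3.0%), and the intervals of Cdt1 here and of Clspn in interneuron-like cells held 1. In the unipolar brush cell or rhombic lip-like class E2f1 was higher (2.44%) and Rpa2 lower (2.95%) among 37. In glutamatergic nuclear or midbrain neuron-like cells Gins2 was higher (4.06%) and Rpa1 lower (4.28%) among 33, and in midbrain-type GABAergic neuron-like cells Pold3 was higher among 16 (4.17%) and 0 were lower (3.55%).

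By the counting interval, which reads small differences in genes with many UMIs, more members lay below 1 than above in astroglia-like, oligodendrocyte lineage-like and granule neuron-like cells, as in progenitor-like cells. In granule neuron-like cells Pola1 and E2f1 lay wholly above 1 (22.4% of all genes) and 24 members wholly below (14.8%), among them the 6 genes of the MCM ring. In astroglia-like cells Rpa1, the large subunit of the single-strand binding protein, and E2f1 lay above (20.7%) and 23 below (11.1%), and the median log2 ratio was -0.23 over the members and 0.06 over all genes. In oligodendrocyte lineage-like cells 0 lay above (8.24%) and 11 below (7.1%). In GABAergic or glial progenitor-like cells 6 lay above (14.5%) and Orc6, Pcna, Rfc4 and Dut below (9.21%). In GABAergic interneuron-like cells 8 lay above (18.7%) and 8 below (15%). In Purkinje cell-like cells Mcm3 lay above (14.9%) and Pcna, Lig1, Tipin and Slbp below (13.8%). E2f1 was the 1 member above (8.82%) and Orc6, Pcna, Rpa2 and Dut were the 4 below (8.57%) in the unipolar brush cell or rhombic lip-like class. Gins2 lay above (14.4%) and Prim1, Rpa1 and Slbp below (13.4%) in glutamatergic nuclear or midbrain neuron-like cells, and in midbrain-type GABAergic neuron-like cells Pold3 lay above (7.66%) and 0 below (6.44%). Some members had ratios on the same side of 1 over nearly all classes. Pcna, Slbp, which binds histone mRNA, and Orc6 had ratios below 1 in 10 of 10 classes, and Prim1, Rfc2, Dut and Tipin in 9 of 10. Pold3 and Rfc3 had ratios above 1 in 9 of 10. The share of all genes that stay on 1 side of 1 in this way was not counted.

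Over the 29 named clusters, the 8 other genes whose log2(CPM + 1) most resembled the log2 summed level of the 51 were Ccna2 (Pearson r of 0.966), Bub1b (0.960), Pclaf (0.959), Smc2 (0.959), Cenph (0.958), Dek (0.952), Cenpn (0.950) and Brip1 (0.949). The clusters come from the same 2 libraries, so that these are descriptions. Each member was also set against the summed level, of which it is a part. Tipin (0.972) and Pcna (0.970) followed the sum most closely, and Prim2 (0.466), the large primase subunit, Gins1 (0.568) and Pold3 (0.637) least. In the list of other replication and G1/S genes, Fbxo5, an inhibitor of the mitotic ubiquitin ligase, and Asf1b, a histone chaperone, had the largest mean log2 ratios of progenitor-like over granule neuron-like cells, 4.74 and 4.16. Pold4, the smallest polymerase delta subunit, had the lowest, at -1.28, with 3.39 and 3.78 CPM in progenitor-like cells, against 6.996 and 10.8 in granule neuron-like cells. The origin recognition genes Orc4 and Orc3 stood at -0.42 and -0.17.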

How the data were processed

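Single cells of postnatal day 1 cerebellar lobules III and IV were measured with the 10x Chromium 3' assay in 1 Cxcr4+/1013 and 1 Cxcr4+/+ library. The authors deposited raw UMI counts per gene and barcode, made with bcl2fastq 2.20.0.4222 and Cell Ranger 7.2 on mm10, per the submitters' processing notes. The annotation release and the counting of introns are not given in the sources used here.

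Kept barcodes had at least 500 genes and no more than 10% mitochondrial UMIs. The highest doublet scores of Scrublet (scanpy 1.11.5) were removed at 0.8% per 1000 barcodes, 626 and 641 barcodes. Cells of both libraries were clustered together (2000 variable genes, 30 components, 15 neighbours, Leiden resolution 1) without 157 cycle and 67 histone genes. Other genes linked to the cycle remained, which limits the split of progenitor-like and granule neuron-like cells. Clusters were named from marker lists, at least 3 markers each, and names end in "-like". Counts were summed per class and library and scaled to CPM. Shares have exact binomial intervals, sums exact Poisson intervals and ratios exact conditional binomial intervals, all at 95%, and they cover counting error only. Scaling factors of edgeR 4.0.16 and DESeq2 1.42.0 served as alternatives only, with no count model. A share of 0 allows 3 counts of its total. The gates and ratios were also run on simulated data, with reference cells as deep as the others and no variation between libraries. Such data cannot show how a gate set on the deeper Purkinje cell-like cells acts in shallower classes.

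Named genes were the 8 members most and the 8 least restricted to progenitor-like cells, each member at least 1.5-fold higher or lower with at least 50 UMIs in a class of at least 100 cells per library, and in progenitor-like cells the 5 on each side whose interval lay farthest from 1. Other members named beside these are examples. The members and lists were chosen with earlier results of these data known. The histone and cyclin E splits, the granule clusters, CCAAT, gene span and 5 alternatives were chosen after seeing the data. Alternatives are given in the closing section.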

Additional observations from a re-analysis of the deposited data

How the results depend on the processing

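No paired analysis was possible because each genotype had 1 library. The cause of each change below was not tested. Cells with Xist and no UMI of Ddx3y, Uty, Kdm5d or Eif2s3y were called female, and the reverse male. Both libraries held both sexes, in unequal mix. Granule neuron-like cells were 634 female and 817 male in the Cxcr4+/1013 library, and 596 and 466 in the Cxcr4+/+ library. Progenitor-like cells were 522 and 666, and 539 and 524. The difference in the share of replication-high cells stayed negative in astroglia-like cells in every alternative run, between -9.30 and -2.43 points. It ran from -4.06 to 1.07 points in progenitor-like and from -7.84 to 2.16 points in GABAergic or glial progenitor-like cells, so that no direction can be given there. In granule neuron-like cells it was 0.815 points with no doublets removed (10.9% in Cxcr4+/1013 and 10.1% in Cxcr4+/+ cells) and -0.169 points at Leiden resolution 0.5. In progenitor-like cells a gate passed by at most 0.1% of Purkinje cell-like cells gave 63.3% and 67.3%, a difference of -4.06 points.

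Summed levels moved more, as log2 ratios of Cxcr4+/1013 over Cxcr4+/+. In progenitor-like cells, at -0.05, they were -0.04 with doublets removed at 2 times the rate, -0.07 in female cells, -0.11 with TMM and with median-of-ratios factors, -0.03 as a mean over cells, -0.02 without Dut and Pcna and -0.02 without the Ube2c and Ccnb1 cluster. In the GABAergic or glial progenitor-like class, at -0.02, they were 0.03 with doublets removed at 2 times the rate, 0.02 in female cells, -0.07 in male cells, -0.06 with both kinds of factors and 0.02 without Dut and Pcna, so that no direction can be given there. In astroglia or Bergmann glia-like cells, at -0.23, they were -0.13 with no doublets removed, -0.35 at 2 times the rate, -0.26 with the stricter barcode filter, -0.16 with cells placed by their own markers, -0.36 in female cells, -0.29 with both kinds of factors, -0.15 as a mean over cells and -0.19 without Dut and Pcna. In granule neuron-like cells, at -0.18, they were -0.02 and -0.26 at Leiden resolutions 0.5 and 2, 0.02 with no doublets removed, -0.08 at 2 times the rate, -0.11 with the stricter filter, -0.10 with cells placed by markers, -0.08 in female and -0.32 in male cells. There they were also -0.23 with TMM, -0.22 with median-of-ratios factors, -0.14 as a mean over cells, -0.15 without Dut and Pcna and -0.04 without the Nhlh1 and Cntn2 cluster.

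The count of members higher in progenitor-like cells was 0 at 2-fold in place of 1 at 1.5-fold, and the shorter motif gave 24 genes in place of 13. Without the Ube2c and Ccnb1 cluster 39 members again had a log2 ratio of at least 2 over granule neuron-like cells, with values down to 0.82 and 0.89 for Orc6 and up to 4.97 and 4.53 for E2f8. Then 39 members in place of 37 were highest in the second mitosis quartile in both libraries. The other alternatives for these results moved the values by less than the limits set. Classes with few cells and members with few UMIs set the depth limit.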

Other observations

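Ependymal cell-like cells were set apart by the mitosis readout. Of these cells 91.4% in the Cxcr4+/1013 and 97.5% in the Cxcr4+/+ library were mitosis-high, while 8.62% and 12.7% were replication-high and 22.4% and 26.6% histone-high. Tubb4b, a tubulin of the mitosis list that is also part of cilia, stood at 2763 and 2701 CPM there, of 6793 and 6730 CPM for the whole list. Other genes of the list were also above their Purkinje cell-like level: Top2a had 341.4 and 328.1 CPM, against 2.75 and 2.14, Cdk1 155.6 and 176.5, against 1.51 and 2.14, and Ckap2l 148.3 and 151.2, against 1.03 and 1.40. Mki67 had 14.5 and 8.87 CPM in them, against 488.8 and 414.7 in progenitor-like cells. Among the clusters left unnamed, the one led by Fabp7, Dynlrb2 and Metrn held 50.9% replication-high cells among 57 thinned cells of both libraries.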
